A study of Mus musculus with 11 samples.

Results

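Uchl1, Uchl3, Uchl5 and Bap1 encode the ubiquitin C-terminal hydrolases, a small family of proteases that remove ubiquitin. The members were taken as the non-control probes that the array files name for these genes, which gave 4 genes with 1 probe each, of 39429 probes in all. Each of the 4 passed the filter on dim probes, which left 20180 genes to test. Uchl1 was picked for its high signal in plasma cell lymphoma, and it passed that filter only through the plasma cell tumours. Its comparisons with plasma cell lymphoma are therefore descriptions with no test. The other 3 were taken as its relatives.

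Gene expression had been measured on one-colour arrays in 11 lymph node tumours, which the series set against each other by type: plasma cell lymphoma (PCL, 4 tumours), mantle cell lymphoma (MCL, 3 tumours) and Burkitt lymphoma (BL, 4 tumours). All tumours came from Black 6 mice of the genotype c-myc-3'RR/p53+/-, in which the regulatory region 3' of the immunoglobulin heavy chain genes drives a c-myc transgene and p53 is heterozygous. Such a transgene is active in B lineage cells, and the labels place every tumour at the mature B cell stage. No normal lymph node and no tumour without the transgene was analysed here, so each value is relative to another tumour type. The labels give no ages and do not state whether tumours are from separate mice. The p-values therefore reflect the spread among these samples alone, and that spread may be technical. The types were hybridised on separate slides, 1 slide per type, so type and slide cannot be told apart in any comparison. Of an array's spots, 55.5% to 62.8% were well above background and 0 were saturated, and precision is limited by how few arrays there are. Markers of mature B cells, the labelled stage, were well above background on all 11 arrays for 8 of 8 listed genes.

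Ubiquitin is a small protein that is attached to other proteins through its C-terminus and marks many of them for the proteasome. Ubiquitin C-terminal hydrolases cut behind that C-terminus, which frees ubiquitin from small adducts, from its own precursors and, with partner proteins, from larger substrates. Uchl1 is abundant in neurons and testis and low in most other tissues, and in the B lineage it is known from germinal centre B cells, myeloma and aggressive B cell lymphomas. Uchl3 acts on ubiquitin and on the related modifier Nedd8. Uchl5 works at the proteasome, where Adrm1 holds it, and in the INO80 chromatin remodelling complex with Nfrkb. Bap1 is a nuclear tumour suppressor that, with Asxl proteins, removes ubiquitin from histone H2A and also binds Hcfc1.

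The Uchl1 probe is shown because every Uchl1 value rests on its 60 bases. It was designed on transcript NM_011670, starts at base 618 of it and has 43.3% guanine plus cytosine. Its ends lie at chr5:67073886-67074977 of mouse build mm9, a span of 1092 bases, so it bridges an intron and reads spliced RNA.
Uchl1 probe: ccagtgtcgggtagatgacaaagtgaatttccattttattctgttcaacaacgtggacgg
The other probes lie in 1 block each. That of Uchl3 is at chr14:102095276-102095335 and starts at base 863 of NM_016723, that of Uchl5 at chr1:145653844-145653903 and starts at base 1098 of NM_019562, and that of Bap1 at chr14:32072862-32072921 and starts at base 3152 of NM_027088. They differ in base composition, with 18.3% guanine plus cytosine for Uchl3, 40% for Uchl5 and 53.3% for Bap1, which bears on the Uchl3 result.

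The promoters of Uchl1 and Bap1 are shown because they are the family's extremes in CpG content. Each is the 250 bases before the start of the gene on the plus strand, from RefSeq on GRCm38.p6, and capitals mark CpG dinucleotides. All 4 members matched an entry.
Uchl1, chr5:66675871-66676120: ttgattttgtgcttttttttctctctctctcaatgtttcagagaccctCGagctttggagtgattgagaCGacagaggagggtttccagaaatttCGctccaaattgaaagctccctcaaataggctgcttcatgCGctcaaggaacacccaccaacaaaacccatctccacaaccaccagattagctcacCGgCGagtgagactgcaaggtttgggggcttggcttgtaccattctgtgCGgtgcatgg
Bap1, chr14:31251239-31251488: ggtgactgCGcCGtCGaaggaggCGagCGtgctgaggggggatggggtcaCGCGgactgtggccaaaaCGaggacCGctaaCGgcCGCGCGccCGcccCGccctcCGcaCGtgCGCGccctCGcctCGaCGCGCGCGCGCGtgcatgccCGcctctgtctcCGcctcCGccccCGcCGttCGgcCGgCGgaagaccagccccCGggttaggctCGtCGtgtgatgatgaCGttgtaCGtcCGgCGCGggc
The Uchl1 promoter held 7 CpG dinucleotides, near the median of 6 over 32851 mouse promoters of that length, and 48.8% guanine plus cytosine against a median of 52.4%. The Bap1 promoter held 43, that of Uchl5 held 30 and that of Uchl3 held 15. The letters GGGCGG, a GC box searched on both strands, occurred 0 times for Uchl1, 1 time for Uchl3, 4 times for Uchl5 and 3 times for Bap1, and 32.7% of all promoters held them. The E-box CACGTG, which reads the same on both strands and is the sequence that Myc with Max can bind, occurred 1 time for Bap1 and 0 times for the others, against 6.02% of all promoters. TATAAA occurred in none of the 4 windows, against 12.4% of all promoters. A match is a description of these letters, and the arrays do not measure binding or methylation.

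Uchl1 RNA was well above background in every PCL and in no MCL or BL. Values here are log2 signals, the log2 of the processed spot intensity minus the log2 of the array's 75th percentile, so that 0 is the array's 75th percentile. The signal was -0.40 in PCL1, 0.13 in PCL2, 1.30 in PCL3 and -2.45 in PCL4. It was -7.85, -7.95 and -7.84 in MCL1 to MCL3, and -8.49, -8.23, -7.76 and -5.39 in BL1 to BL4. The groups did not overlap, and the nearest tumours of different types were PCL4 and BL4. Before scaling, the spot read 947, 1785, 2776 and 256 intensity units in the PCL and between 3.40 and 34.3 in the 7 other tumours.

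The PCL mean was -0.35 ± 1.57 (SD, n = 4), the MCL mean -7.88 ± 0.06 (SD, n = 3) and the BL mean -7.47 ± 1.42 (SD, n = 4). The differences in log2 signal were 7.52 from MCL and 7.11 from BL. They rest on MCL and BL spots that were not well above background, so the ratio is given as an approximate bound. By this approximate bound, the PCL mean of Uchl1 was at least 50.8-fold above MCL and at least 50.5-fold above BL. PCL4, the lowest PCL, was 7.71-fold above BL4. With each PCL left out in turn, the bounds were highest without PCL4, at 82.4-fold and 81.9-fold. They were lowest without PCL3, at 34.6-fold and 34.4-fold. For each bound, the dim arrays enter with the probe's own signal or, where that is lower, with a floor. This floor is the dimmest signal that the array measured well above background. It is not a strict limit for this probe, since BL4 lay above it without passing the background flag. Of all genes, 2.11% were called higher in PCL than in MCL and 0.456% higher in PCL than in BL, and nothing is read from these shares for a gene chosen on the same contrasts. The bounds hold for this background subtraction only, and other treatments gave smaller ratios. Normexp background correction was run with an offset of 50 intensity units added to every spot. With it the differences were 3.96 and 3.46, or 15.5-fold and 11-fold. In the deposited log2 table they were 4.30 and 4.17, or 19.7-fold and 18.0-fold.

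The 4 PCL were far apart from each other in Uchl1. PCL3 was 13.5-fold brighter than PCL4, while PCL1 and PCL2 lay between. The MCL values lay close together at the level of the background, and among the BL, BL4 alone stood above the rest without passing the background flag. Because 0 of these 7 arrays measured Uchl1 well above background, no ratio between MCL and BL is read and no test is given.

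**Figure D1:**
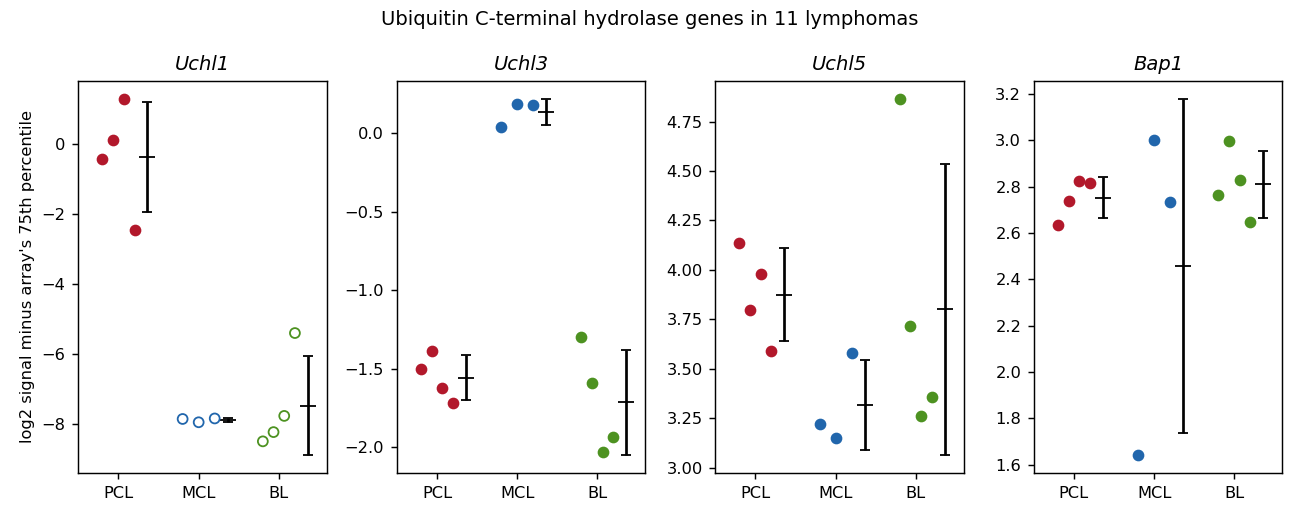
The log2 signal of the 4 family members in each of the 11 tumours, with 1 point per tumour, black bars for the mean ± SD of a type and a separate axis for each gene. Open points mark types in which no array had the probe well above background. Uchl1 is higher in the 4 PCL, from -2.45 to 1.30, than in the other tumours, and Uchl3 is higher in the 3 MCL.

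In bulk tumours, more cells with a transcript and more RNA per cell cannot be told apart, so levels of marker genes were set beside Uchl1. Nerve, glia and neuroendocrine markers, a class in which Uchl1 is abundant, correlated with it over the 11 tumours at r from -0.12 to 0.68. Of 15 listed genes, 6 did not pass the filter on dim probes and were not tested, namely Nefl, Nefm, Stmn2, Chga, Syt1 and S100b. The 9 others had median levels, each gene centred on its mean, of -0.08 to 0.16 in the PCL, 0.15 to 0.45 in the MCL and -0.61 to -0.10 in the BL. By limma 0 of the 9 were called in either PCL comparison (1 and 2 at an unadjusted p under 0.05). Over all genes, 24.3%, 17.6% and 18.4% had an unadjusted p under 0.05 for PCL against MCL, PCL against BL and MCL against BL, and such counts below are to be read against these shares. Higher means in PCL were seen for 3 of 9 against MCL and 9 of 9 against BL.

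Macrophage and monocyte markers had higher means in PCL and correlated with Uchl1, but PCL1 lay below every BL. Over the 11 tumours each of the 11 measured markers correlated with Uchl1 above 0, with r from 0.41 to 0.84, a description over arrays that share the PCL contrast. Their centred median was -0.96 in PCL1, 2.74 in PCL2, 1.31 in PCL3 and 1.78 in PCL4, against -2.05 to 0.25 in the MCL and -0.68 to 0.01 in the BL. The means of all 11 were higher in PCL in both comparisons, with 1 called against MCL and 0 against BL (9 and 5 at an unadjusted p under 0.05). The Uchl1 signals of PCL1 to PCL4 were -0.40, 0.13, 1.30 and -2.45, so PCL1 was lowest for the macrophage markers and PCL4 for Uchl1. The plasma cell list ran from -0.16 to 0.82 in the PCL, -0.91 to 0.50 in the MCL and -0.94 to -0.08 in the BL, and 0 of its 7 genes were called (3 and 4 at an unadjusted p under 0.05). The means of 5 of the 7 were higher in PCL than in MCL and of 7 of 7 than in BL. Sdc1, the plasma cell surface proteoglycan, differed by 2.04 from MCL and 3.04 from BL (adjusted p = 0.125 and 0.0724), and Jchain, which joins polymeric antibody, by 3.45 and 4.38 (adjusted p = 0.128 and 0.106). The plasma cell regulators Xbp1 and Irf4 differed by -0.13 and -0.02 from MCL and by 0.36 and 0.30 from BL, the latter with adjusted p of 0.579 and 0.723. Mature B cell markers ran from -0.59 to 0.18 in the PCL, -0.21 to 0.37 in the MCL and 0.19 to 0.42 in the BL. Of these 8 genes Spib, an ETS factor of B cells, was called in both PCL comparisons, lower in PCL (-2.06 and -1.63, adjusted p = 0.00825 and 0.0446), and its r with Uchl1 was -0.82. Germinal centre B cell markers ranged from -0.90 to 0.45 in the PCL, -0.37 to 0.96 in the MCL and -0.06 to 1.22 in the BL, with 0 of 8 called in the PCL comparisons (2 and 1 at an unadjusted p under 0.05). Centred medians of granulocyte markers ran from -1.90 to 3.38 in the PCL, -2.25 to 0.38 in the MCL and -2.18 to 1.96 in the BL. Those of T cell markers ran from -0.15 to 0.04, -0.76 to 1.07 and -1.45 to 0.81, those of stroma and endothelium from -0.30 to 1.20, -1.26 to 0.23 and -0.94 to 1.51, and those of erythroid cells from -1.56 to 0.99, -2.17 to 2.15 and -0.62 to 2.26. The part of these other cell types in the Uchl1 values was not tested.

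The genes whose log2 signals ran most like Uchl1 over the 11 tumours were Jhy (r = 0.97), Apoc2 (r = 0.95), Hey1 (r = 0.93), Uprt (r = 0.93), Hagh (r = 0.93), Tns2 (r = 0.92), Tmem81 (r = 0.92) and Amdhd1 (r = 0.92). These Pearson correlations over 11 arrays describe a ranking over all genes tested, and they share the contrast between PCL and the rest. Jhy resembled Uchl1 also within PCL: it read -1.33, -0.95, -1.06 and -3.50, with PCL4 lowest. Jhy also stood out in BL4, at -3.50, where it was well above background, while it was not in the other 6 tumours of MCL and BL. Hey1, a Notch target repressor, was well above background in 4 PCL, 0 MCL and 1 BL, so no difference is given, and its lowest PCL was PCL1, at -3.60. Apoc2, an apolipoprotein that macrophages also make, differed by 6.46 and 5.31. Tns2 differed by 3.43 from BL and was well above background in 1 of 3 MCL, and Amdhd1 was so in 0 MCL and 1 BL, whereas Uprt, Tmem81 and Hagh followed the same profile over 0.72 to 1.25 log2 units.

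**Figure D2:**
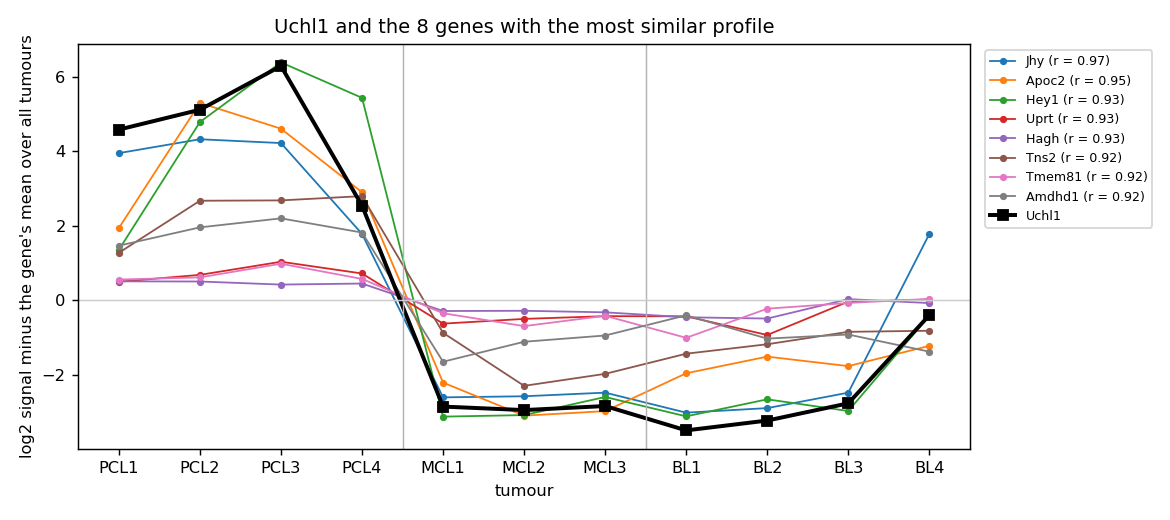
Uchl1 (black squares) and the 8 genes with the most similar profile, as log2 signal minus the gene's own mean over the 11 tumours, with r the Pearson correlation with Uchl1. All of them lie higher in the 4 PCL than their own mean, with values not well above background included. PCL4 is the lowest PCL for Uchl1 and Jhy but not for Hey1.

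Position around Uchl1 was not used to choose it. Within 1000 kb of its probe, 37 other probes were on the array and 16 other genes were tested. By limma 0 of the 16 were called between PCL and BL (3 at an unadjusted p under 0.05), where 0.659% of all genes were, with differences from -0.39 to 2.21. Between PCL and MCL 3 of the 16 were called, where 6.85% of all genes were: the unnamed transcript BY456555 was higher in PCL by 3.56 (adjusted p = 0.0297), and Atp8a1, a phospholipid flippase gene, was lower by 1.11 (difference -1.11, adjusted p = 0.0168), as was ENSMUST00000101177 (-0.59, adjusted p = 0.0477). Bend4, at 710 kb, differed by 4.91 from MCL (adjusted p = 0.0917). The nearest probes were dim. NAP063523-1, at 4.96 kb, was well above background on 0 arrays and C530043K16Rik, at -90.2 kb, toward lower coordinates, on 1. The next nearest probe, at 208 kb and without a gene name, was well above background on 11 arrays. It differed by -0.09 between PCL and MCL and by 0.04 between PCL and BL (adjusted p = 0.825 and 0.938, limma). The farther gene Limch1 had no probe well above background on any array.

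Uchl3 had another profile, high in the MCL, with overlapping values in the other types. Its log2 signal was 0.04, 0.18 and 0.18 in MCL1 to MCL3. It was -1.50, -1.39, -1.62 and -1.72 in PCL1 to PCL4, and -1.30, -1.59, -2.03 and -1.94 in BL1 to BL4. Every MCL lay above every PCL and BL, and the PCL and BL overlapped. The MCL mean was 0.13 ± 0.08 (SD, n = 3), the PCL mean -1.56 ± 0.14 (SD, n = 4) and the BL mean -1.71 ± 0.34 (SD, n = 4).

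The PCL minus MCL difference of Uchl3 was -1.69 ± 0.20 (SE), or 3.23-fold higher in MCL, with a 95% interval of -2.14 to -1.25 (adjusted p = 0.00269, limma). The MCL minus BL difference was 1.85 ± 0.20 (SE), or 3.60-fold higher in MCL, with an interval of 1.40 to 2.29 (adjusted p = 0.00126, limma). PCL and BL differed by 0.16, with an interval of -0.25 to 0.57 (adjusted p = 0.708, limma). Uchl3 was the 1 member called of 3 tested, both between PCL and MCL, where 6.85% of all genes were called, and between MCL and BL, where 6.62% were. Between PCL and BL, where 0.659% were called, 0 of 3 members were called by limma, and 0 at an unadjusted p under 0.05. In the F test among the 3 types, which called 8.37% of all genes, Uchl3 had an adjusted p of 0.00207, Uchl5 of 0.508 and Bap1 of 0.648 (limma). The MCL calls of Uchl3 held in 22 of 24 alternative settings, and both exceptions corrected for the base composition of the probes.

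That composition moved with the Uchl3 result. The Uchl3 probe has 18.3% guanine plus cytosine, and on these arrays AT-rich probes as a class were brighter in the MCL. Over the 20 genes whose probe has at most 20% guanine plus cytosine, Uchl3 included, the median difference was 1.03 for MCL minus BL and -1.13 for PCL minus MCL, and 18 of 20 were higher in MCL than in BL. For PCL minus BL the median was 0.00. Of these 20 genes, 30% were called higher in MCL than in BL and 40% higher in MCL than in PCL. The shares over all genes were 6.42% and 4.75%. In the next class, over 20% and up to 25%, the medians of 90 genes were 0.45 and -0.44. From 30% to 35%, with 4449 genes, they were 0.04 and -0.03. Above 55% they moved the same way again, with 0.32 and -0.26 over 72 genes and 0.42 and -0.27 over 114 genes.

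Within the class of at most 20%, 5 genes including Uchl3 had an MCL minus BL difference at least as large as that of Uchl3. Among them Cbx7, a Polycomb subunit, reached 3.65. With the median of each composition class taken out of each array, a correction added after the data were seen, the Uchl3 differences were -0.14 for PCL minus MCL (adjusted p = 0.780, limma) and 0.81 for MCL minus BL (adjusted p = 0.118, limma). The class of Uchl3 then rested on 30 probes. Neither call remained.

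**Figure D3:**
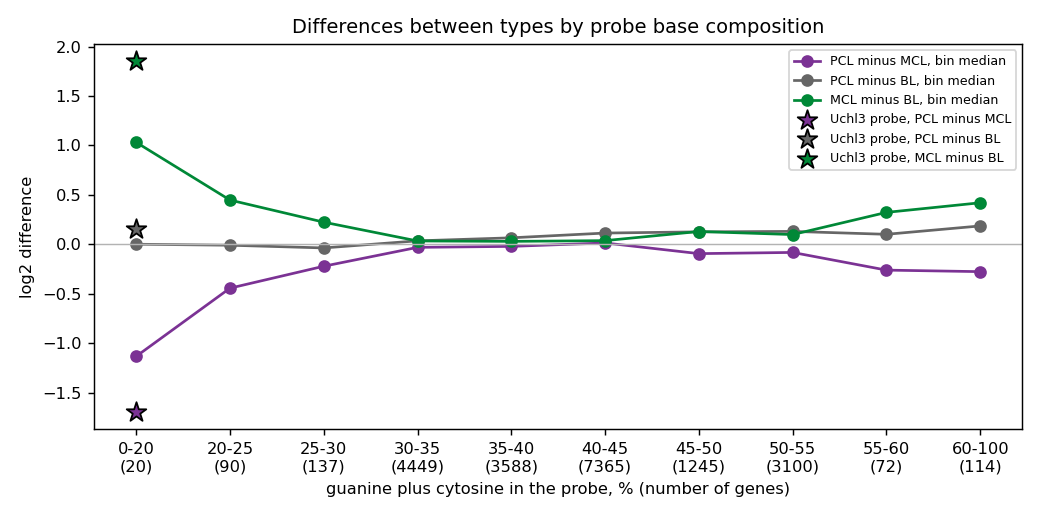
Median log2 difference between lymphoma types over genes binned by the guanine plus cytosine content of their probe (percent, upper bound included, number of genes in brackets), with stars for Uchl3. PCL minus BL stays near 0 at the AT-rich end, while both comparisons with MCL move away from 0, to medians of 1.03 and -1.13 over 20 genes.

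A pair of related probes outside the choice of members bear on Uchl3. A probe at chr14:102066444-102066503 of mm9, 28.8 kb from the Uchl3 probe, is described in the files as a Uchl3 transcript (ENSMUST00000066470) and has 35% guanine plus cytosine. It read -2.43, -2.31, -2.54 and -2.02 in the PCL, -2.90, -2.37 and -2.88 in the MCL and -3.79, -2.46, -2.57 and -2.73 in the BL. The 3 types overlapped. PCL minus MCL was 0.39 with an interval of -0.32 to 1.09 (adjusted p = 0.491, limma), and MCL minus BL was 0.17 with an interval of -0.53 to 0.88 (adjusted p = 0.835, limma). Both intervals leave out the size seen with the Uchl3 probe.

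Uchl4, a mouse gene whose sequence closely resembles that of Uchl3, was measured by a probe at chr9:64083589-64083648 with 36.7% guanine plus cytosine. It read 3.52, 3.78, 3.74 and 3.55 in the PCL, 3.79, 3.69 and 3.85 in the MCL and 3.84, 3.49, 3.07 and 3.18 in the BL. PCL minus MCL was -0.13 with an interval of -0.58 to 0.32 (adjusted p = 0.731, limma) and MCL minus BL was 0.39 with an interval of -0.06 to 0.83 (adjusted p = 0.361, limma). Over the 11 tumours the Uchl3 signal had a correlation of 0.64 with Uchl4 and of -0.18 with the other Uchl3 transcript. Neither of these probes was called in any setting. The array therefore gives an MCL difference for Uchl3 with 1 of 2 probes named for it.

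**Figure D4:**
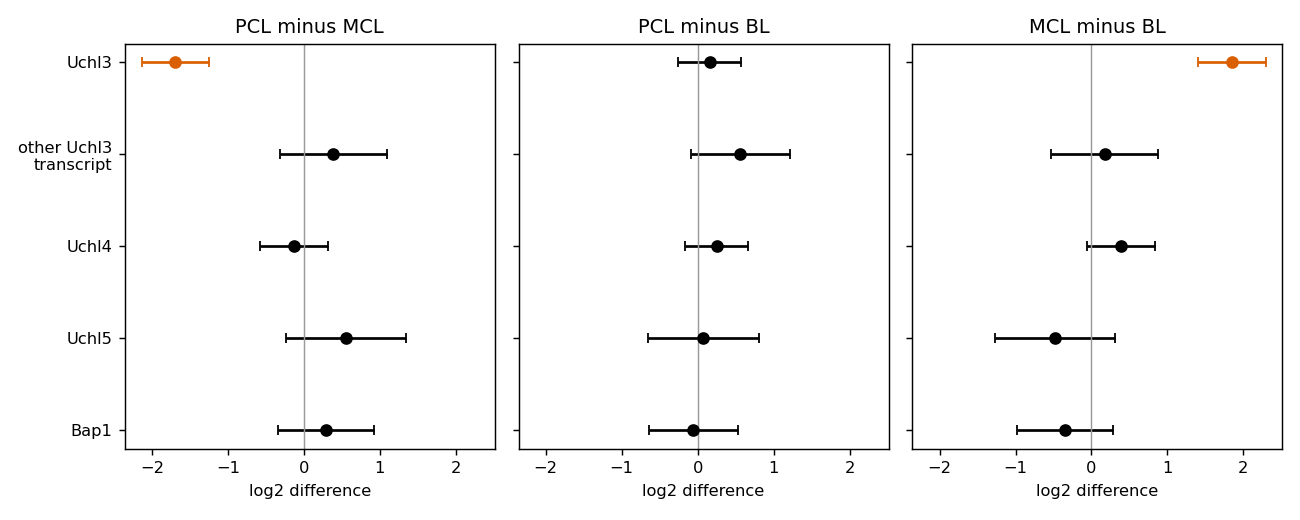
Differences in log2 signal between lymphoma types with 95% intervals from limma for Uchl3, the probe of another Uchl3 transcript, Uchl4, Uchl5 and Bap1 (orange, adjusted p under 0.05). The Uchl3 probe is the 1 called, at -1.69 and 1.85, and the other intervals include 0.

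The genes that ran most like Uchl3 were Lyar (r = 0.99), Olfr1350 (r = 0.98) and Ppp1r14bl (r = 0.97), again over 11 arrays. Lyar, a nucleolar protein gene, had MCL minus BL and PCL minus MCL differences of 2.58 and -2.57, and its probe, with 21.7% guanine plus cytosine, is also AT-rich. The probes of Olfr1350, an olfactory receptor gene, and of Ppp1r14bl are not, at 45% and 51.7%. The MCL minus BL difference of Olfr1350 was 0.92 and that of Ppp1r14bl 2.39.

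Uchl5 was bright in every tumour and did not pass the test in any comparison. It read 4.14, 3.80, 3.98 and 3.59 in PCL1 to PCL4, 3.22, 3.15 and 3.58 in MCL1 to MCL3, and 4.87, 3.71, 3.26 and 3.36 in BL1 to BL4. PCL and MCL did not overlap, by the margin between PCL4 at 3.59 and MCL3 at 3.58, and BL spanned both, from 3.26 to 4.87. Its probe is printed 10 times on the array, and the SD over these spots was 0.036 to 0.078 log2 units, far below the spread between tumours. BL1 was 3.04-fold brighter than the dimmest BL, which is nearly the whole range over the 11 tumours of 3.28-fold.

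The Uchl5 mean was 3.88 ± 0.23 (SD, n = 4) for PCL, 3.32 ± 0.23 (SD, n = 3) for MCL and 3.80 ± 0.74 (SD, n = 4) for BL. PCL minus MCL was 0.56 ± 0.36 (SE), with an interval of -0.23 to 1.35 (adjusted p = 0.367, limma). MCL minus BL was -0.48, with an interval of -1.27 to 0.31 (adjusted p = 0.549, limma), and PCL minus BL 0.08, with an interval of -0.66 to 0.81 (adjusted p = 0.938, limma). The intervals allow a difference of more than 1 log2 unit in either MCL comparison. The genes closest to its profile were Grsf1 (r = 0.95), Tiprl (r = 0.94) and Rbfa (r = 0.93), each with BL1 as its brightest tumour.

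Calls were also missing among the partners through which Uchl5 acts, a list short enough that the shares of all genes called, 6.85%, 0.659% and 6.62%, come to few genes. Of 18 listed genes of the proteasome cap and the INO80 complex, 18 were tested and 0 were called by limma in any comparison (5, 3 and 4 at an unadjusted p under 0.05 for PCL against MCL, PCL against BL and MCL against BL). Adrm1, the proteasome receptor of Uchl5, differed by 0.30 between PCL and MCL (adjusted p = 0.552) and by 0.24 between PCL and BL (adjusted p = 0.673). Nfrkb, its INO80 partner, differed by 0.01 and -0.25 (adjusted p = 0.987 and 0.572). The smallest adjusted p values were those of the proteasome base subunit Psmd2 for PCL minus MCL (0.66 ± 0.18 SE, adjusted p = 0.0557), the INO80 ATPase Ruvbl1 for PCL minus BL (-0.75, adjusted p = 0.114) and the ubiquitin receptor Psmd4 for MCL minus BL (-0.49, adjusted p = 0.129).

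Bap1 was the most even member outside 1 tumour. It read 2.63, 2.74, 2.82 and 2.82 in PCL1 to PCL4, 1.64, 3.00 and 2.73 in MCL1 to MCL3, and 2.76, 3.00, 2.83 and 2.65 in BL1 to BL4. The types overlapped, and MCL1 stood below the other 10 tumours. Its range over all tumours was 2.57-fold, against 4.64-fold for Uchl3. The Bap1 mean was 2.75 ± 0.09 (SD, n = 4) for PCL, 2.46 ± 0.72 (SD, n = 3) for MCL and 2.81 ± 0.15 (SD, n = 4) for BL.

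PCL minus MCL was 0.29 for Bap1, with an interval of -0.34 to 0.93 (adjusted p = 0.567, limma), and MCL minus BL was -0.35, with an interval of -0.99 to 0.28 (adjusted p = 0.595, limma). PCL minus BL was -0.06, with an interval of -0.64 to 0.53 (adjusted p = 0.941, limma). Without MCL1 the first was -0.11 and the second 0.06, so the sign of both rests on that tumour. The genes closest to its profile were Cyp51 (r = 0.96), an enzyme of cholesterol synthesis, Cdca8 (r = 0.96), of the chromosomal passenger complex, and Rbm38 (r = 0.96), an RNA-binding protein gene. Each was lowest in MCL1, at -3.31 for Cyp51 and -0.55 for Rbm38.

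Of 12 listed Bap1 partners 11 were tested and 0 were called by limma in any comparison (1, 0 and 0 at an unadjusted p under 0.05, in the same order). Asxl1, which activates Bap1 on histone H2A, differed by -0.26 between PCL and MCL and by -0.13 between PCL and BL (adjusted p = 0.636 and 0.860). Its paralog Asxl2 differed by 0.14 and -0.20 (adjusted p = 0.881 and 0.855). Hcfc1, the cell cycle cofactor, differed by -0.05 and -0.33 (adjusted p = 0.885 and 0.330). Mbd5 for PCL minus MCL (0.83, adjusted p = 0.194) and Bard1 for MCL minus BL (-0.48, adjusted p = 0.469) had the smallest adjusted p values. Of the 8 PRC1 ligase genes, whose product on H2A Bap1 removes, 0 were called (0 in each comparison at an unadjusted p under 0.05). Pcgf1 for PCL minus MCL (-0.70, adjusted p = 0.208), Pcgf5 for PCL minus BL (-0.44, adjusted p = 0.418) and Ring1 for MCL minus BL (0.64, adjusted p = 0.302) came closest.

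The substrates and the Nedd8 branch, on which Uchl3 also acts, did not pass the test in any comparison. Of 5 ubiquitin and Nedd8 genes 0 were called by limma (0 in each comparison at an unadjusted p under 0.05). Nedd8 itself differed by 0.19, 0.05 and -0.15 (adjusted p = 0.575, 0.929 and 0.758) for PCL minus MCL, PCL minus BL and MCL minus BL. The polyubiquitin gene Ubb came closest for PCL minus MCL (0.28, adjusted p = 0.393) and MCL minus BL (-0.35, adjusted p = 0.367). Of 13 genes that attach or remove Nedd8, 0 were called (1, 0 and 1 at an unadjusted p under 0.05). The conjugating enzyme Ube2f differed by 0.59 between PCL and MCL (adjusted p = 0.159) and by -0.56 between MCL and BL (adjusted p = 0.236), and Uba3, of the activating enzyme, by -0.52 between PCL and BL (adjusted p = 0.294).

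The members did not run together. Over the 11 tumours the correlation was -0.41 between Uchl1 and Uchl3, 0.23 between Uchl1 and Uchl5, 0.10 between Uchl1 and Bap1, -0.29 between Uchl3 and Uchl5, -0.36 between Uchl3 and Bap1 and 0.20 between Uchl5 and Bap1. These describe 11 shared arrays and no test was made.

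Deubiquitinases of the other families give the setting for these values. Of 80 listed genes of the ubiquitin-specific protease, OTU, Josephin, JAMM and MINDY families, 70 were tested. Of these 1 was called between PCL and MCL, a share of 1.43% against 6.85% of all genes, and 0 in the other comparisons by limma (7, 8 and 5 at an unadjusted p under 0.05). The called gene was Stambp, an endosomal JAMM protease that trims ubiquitin chains, with -1.15 ± 0.32 (SD, n = 4) in PCL and -0.36 ± 0.16 (SD, n = 3) in MCL, a difference of -0.80 ± 0.20 (SE, adjusted p = 0.0424). It was called in 7 of 22 alternative settings and kept its sign in 22.

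The median difference over the 70 genes was 0.12 for PCL minus MCL, -0.02 for PCL minus BL and -0.19 for MCL minus BL, where all genes had medians of -0.03, 0.09 and 0.06. Their differences ranged from -1.76 to 2.11, from -0.84 to 1.82 and from -1.90 to 1.36. At the ends for PCL minus MCL were Usp18 (-1.76, adjusted p = 0.597), an interferon-induced ISG15 protease, Usp51 (2.11, adjusted p = 0.367) and Otub2 (1.49, adjusted p = 0.413). For PCL minus BL they were Usp5 (-0.84 ± 0.17 SE, adjusted p = 0.0581), which disassembles free ubiquitin chains, Otud3 (-0.71, adjusted p = 0.226), Usp2 (1.82, adjusted p = 0.141) and Usp51 (1.07, adjusted p = 0.704). For MCL minus BL they were Otub2 (-1.90, adjusted p = 0.392), Otud7b (-1.08, adjusted p = 0.111), Usp18 (1.36, adjusted p = 0.768) and Usp2 (0.91, adjusted p = 0.510). Besides these, Usp40 for PCL minus MCL (0.80, adjusted p = 0.0830), Otud7b for PCL minus MCL (0.98, adjusted p = 0.121), Mpnd for MCL minus BL (-0.78, adjusted p = 0.123) and Usp46 for MCL minus BL (-0.75, adjusted p = 0.128) had the smallest adjusted p of their family.

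**Figure D5:**
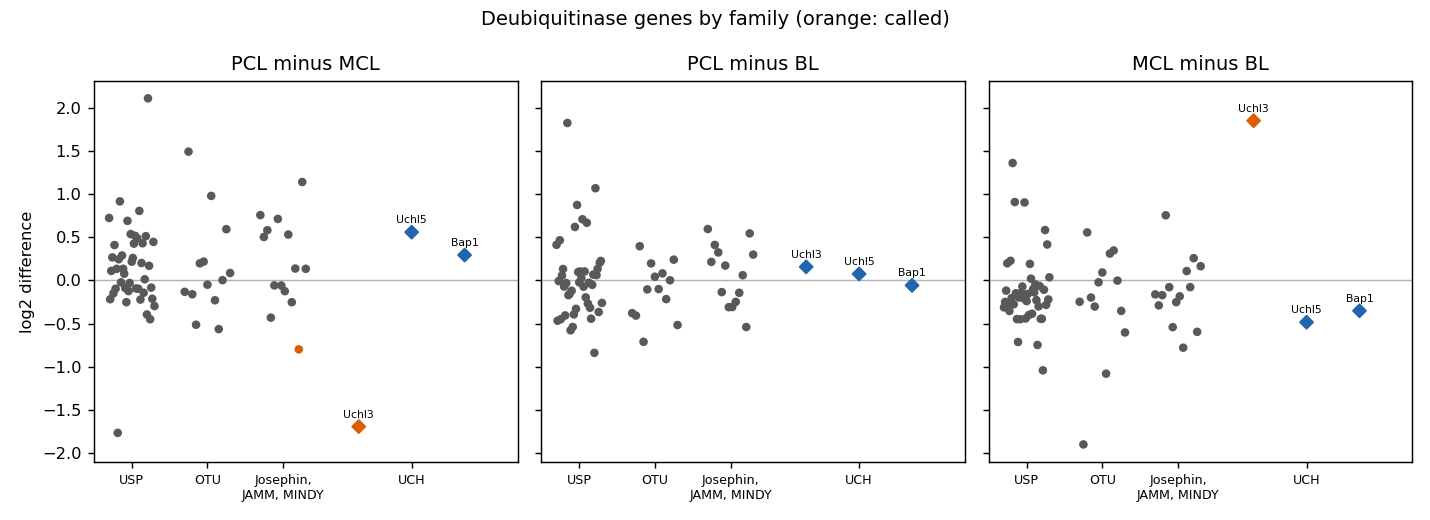
Log2 differences between lymphoma types for the 70 tested deubiquitinases of other families (dots) and the 3 tested ubiquitin C-terminal hydrolases (UCH, diamonds, named), with called genes in orange; Uchl1 is left out. Uchl3 lies at -1.69 and 1.85 in the MCL comparisons, and the 1 called gene of the other families is Stambp, at -0.80.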

How the data were processed

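One-colour arrays of 11 tumours were analysed, 1 per tumour, grouped by the origin in the labels. Replicate numbers follow the order of deposition and equal the number that comes after the slide number in each tumour's title. In their deviations from type means, same-numbered tumours correlated at -0.05 to 0.17, over 0.1 in 3 of 10 pairs. Tumours of different types and numbers correlated at -0.24 to 0.17, so same-numbered pairs lay toward the upper end of that range. Whether the numbers pair samples was not tested, and the main fit had no term for them. Total RNA, 0.2 micrograms per tumour with integrity numbers from 8 to 10, was labelled with Cy3, per the labels.

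The deposited scanner files hold intensity, spot brightness on a linear scale, which per the file headers was extracted by Agilent Feature Extraction 10.7.3.1, with probe coordinates of mm9. They also hold the software's flags for outlier and saturated spots and for spots well above background, in a unit of their own (other), as deposited. On each array 21.5% to 29.2% of spots carry a substitute value where the signal did not exceed the background, so differences of dim probes depend on it. The authors also deposited a value table, on a log2 scale judging by its values, which ranks spots exactly as their median signal does (Spearman correlation 1), and its columns have medians of 7.25 to 7.26, so it appears normalized between arrays. The sources used here do not give how it was made, and it served as an alternative.

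From the files, 43020 non-control spots of 39429 probes were read. Outlier spots were dropped, which lost 46 probes. Each array's log2 processed signals were set relative to its 75th percentile (1067 to 1632 intensity units), and spots of a probe were averaged. A probe was kept where 3 or more arrays had it well above background (25295 probes), and the brightest probe stood for a gene (20180 genes). Names were updated through RefSeq of GRCm38.p6 for 26581 probes by accession, 2597 by symbol and 492 by older symbol, and 9759 kept the name in the files.

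Types were compared with limma 3.58.1 in R 4.3.3, in 1 fit of all 11 arrays with 8 residual and 2.01 prior degrees of freedom. A gene was called at an adjusted p under 0.05 (Benjamini-Hochberg, all genes), and the code was tested on simulated data. There, between PCL and MCL, 18% of genes changed by 1 log2 unit were called, and 52% of those changed by 2. Fewer genes were changed there than were called in the data, so these shares need not hold for the data. A missing call does not show that a gene is unchanged. Every adjusted p is from this fit and every difference is on the log2 scale. The median standard error of a difference over all genes was 0.31, 0.29 and 0.31 for PCL minus MCL, PCL minus BL and MCL minus BL.

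The members and all lists were chosen with earlier results of these data known. The genes named are the members, the 8 genes most correlated with Uchl1 and the 3 with each other member, the called genes of each list or else the one with the smallest adjusted p, fixed partners, the outermost deubiquitinases, markers, and neighbours of Uchl1 within 1000 kb. Some genes that the rule names are not reported here. Named after their values were seen were Uchl4, the other Uchl3 transcript and Cbx7. Alternatives were background correction, scaling, the deposited table, filters, weights, a replicate block, leaving out each tumour, the 2 types alone and, added later, probe base composition.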

Additional observations from a re-analysis of the deposited data

How the results depend on the processing

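Among 24 alternative settings, the Uchl3 differences from MCL stayed called in 22, with the exceptions of the probe base composition correction (-0.14 for PCL minus MCL and 0.81 for MCL minus BL) and that correction with the replicate block (-0.075 and 0.75, adjusted p = 0.879 and 0.168). Whether the replicate numbers pair the tumours was not tested, and the block alone ended no member's call. Uchl5, Bap1 and the Uchl3 difference between PCL and BL stayed uncalled in all 24. The requirement of a signal well above background on all arrays removes Uchl1. Scaling to the array median moved the median of all genes by -0.27 for PCL minus BL and -0.25 for MCL minus BL, and turned PCL minus BL to -0.11 for Uchl3 and -0.19 for Uchl5. With each tumour left out in turn, PCL minus BL ran from -0.10 to 0.43 for Uchl5 and from -0.11 to 0.0055 for Bap1. For Bap1, PCL minus MCL ran from -0.11 to 0.57 and MCL minus BL from -0.62 to 0.058. For Uchl1, not well above background in any MCL or BL, MCL minus BL ran from -0.75 to 0.28 and is not read as a ratio. Uchl1 differed by 3.96 from MCL and 3.46 from BL with normexp, and by 4.30 and 4.17 in the deposited table. The cause of these shifts was not tested.

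The counts of called genes over all genes moved with many settings. For PCL against MCL, PCL against BL and MCL against BL, and for the F test, they were 1383, 133, 1336 and 1690. They were 192, 13, 64 and 128 with normexp, 390, 65, 361 and 342 with the replicate block, and 424, 35, 212 and 318 with the block and the composition correction. Array quality weights gave 4432, 2181 and 4750 (F), and no filter 686, 85 and 1042 (F). MCL against BL gave 771 with quantile normalization, 675 in the deposited table, 300 with the array median and 290 with these 2 types alone. PCL against BL gave 531 with the array median, and PCL against MCL 740 with its 2 types alone. Leaving out a tumour gave 330 to 2454, 5 to 1079, 683 to 1364 and 711 to 2812 (F); apart from MCL against BL, the highest was without PCL1 and the lowest without PCL2. The share of PCL against BL calls higher in PCL was 69.2%, but 20.5% with the array median, 57.9% with quantile normalization, 38.5% with normexp and 51.9% in the deposited table. For PCL against MCL it was 30.7%, and 45.8% with normexp. Slide could not enter the fit, since each slide held 1 type.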

Other observations

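A single probe stood for each member, so a value says nothing of other transcripts of the gene, and for Uchl3 the probes named for it differ. Of 12 groups of 4 tumours examined, 4 members and 2 related probes in PCL and BL, 0 held a tumour beyond Dixon's critical value of 0.829. With 4 values the test can miss a divergent tumour, so this count does not show that none diverged. The MCL were not examined in this way, among them MCL1, which was lowest for Bap1 at 1.64. RNA was measured, not protein or enzyme activity. With 3 or 4 tumours a type, intervals of Uchl5 and Bap1 span more than 1 log2 unit.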
